A study of Mus musculus with 20 samples.

Results

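The genes described here encode the proteins of the cytosolic ribosome in mouse heart ventricle. They were chosen by symbol, as every row named Rpl or Rps followed by a number and, where present, an a or x, together with Rplp0, Rplp1, Rplp2 and Rpsa and without Rpl3. The rule found 75 genes, 30 of the small and 45 of the large subunit, among 18657 genes tabulated at 6 months and 17808 tabulated at 6 weeks, and all 75 were in both tables. Rps3a1 and Fau also encode ribosomal proteins, but their symbols fall outside the rule. RNA from ventricular myocardium, labelled left ventricle, was sequenced after poly(A) selection from 20 mice in 5 groups. At 6 months there were 4 Sorbs2 knockout mice injected at postnatal day 2 with AAV9-Tnnt2-Sorbs2 (KO+AAV), a viral vector in which the cardiomyocyte promoter Tnnt2 drives Sorbs2, 5 untreated Sorbs2 knockout mice (KO) and 5 untreated wild-type mice (WT). At 6 weeks there were 3 untreated KO and 3 untreated WT mice. Sorbs2 encodes an adaptor protein of the cytoskeleton, and the labels give neither the knockout allele nor the sex or strain. No knockout group received a control virus, so the injection and the Sorbs2 it carries cannot be told apart.

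A ribosome joins a small subunit, which holds the mRNA and checks each codon, to a large subunit, which forms the peptide bond and releases the growing chain through an exit tunnel. The mRNAs of its proteins are short, abundant and made in every cell. Many start with a C followed by a run of pyrimidines, the 5′ terminal oligopyrimidine (TOP) tract, through which the kinase complex mTORC1 controls their translation. In heart the family is often followed because growth of cardiomyocytes needs new ribosomes.

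The start sites of 7 genes named in the results are shown, since the TOP tract is the sequence through which the family is usually held together. RefSeq promoters (GRCm38.p6, the build called mm10) were found for 56 of the 75 genes, and Rpl29 was not among them. Each window holds 15 bases before and 15 after the annotated start, 5′ to 3′ on the gene's strand. Capitals mark a C followed by at least 4 C or T that starts within 3 bases of the annotated start.
Rps2, chr17:24720048-24720077, plus strand: aggcagtcgagatctcgcgcttcttggagc
Rpl18, chr7:45718056-45718085, plus strand: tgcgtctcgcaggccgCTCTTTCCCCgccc
Rps9, chr7:3704026-3704055, plus strand: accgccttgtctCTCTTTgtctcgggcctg
Rpl13a, chr7:45128731-45128760, minus strand: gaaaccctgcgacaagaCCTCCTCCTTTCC
Rps18, chr17:33955651-33955680, minus strand: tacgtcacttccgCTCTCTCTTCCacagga
Rps6, chr4:86857353-86857382, minus strand: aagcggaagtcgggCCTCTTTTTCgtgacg
Rplp0, chr5:115559452-115559481, plus strand: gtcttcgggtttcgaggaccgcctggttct

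A tract of this kind was present in 21 of the 56 promoters (37.5%), against 11.5% of the 32851 mouse promoters in the same set. For each family gene only the promoter nearest the start of its GENCODE transcript was used. The 32851 were not reduced in this way, here or for the motifs below. Among the 7 genes shown, Rps2 and Rplp0 had none at the annotated start, and only 17 of the 56 RefSeq starts lay within 5 bases of the start of the GENCODE transcript used here, so the window need not hold the start used in heart. In windows from 250 bases before to 50 after the start, searched on both strands, CCGGAAG, the core that ETS factors bind, was in 21 of 56 (37.5%) against 8.9% of all promoters. AAGATGG was in 8 (14.3%) against 6.3%. TATAAA was in 5 (8.9%) against 13.6%, and CACGTG in 5 (8.9%) against 7.2%. CCGGAAG ends with the 3 letters that open AAGATGG, and none of the motifs contains another. A match describes the sequence only.

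The values are the authors' normalised counts, normalised separately at each age. Most of the genes were among the abundant mRNAs of the ventricle, but their counts were unequal. At 6 months Rps2, which lies near the mRNA entry of the small subunit, was the most abundant by mean over all libraries, followed by Rplp0 and Rpsa. At 6 weeks the order was Rpl13a, Rps15 and Rplp0. Per kilobase of coding sequence, Rpl41, whose open reading frame of 75 bases is the shortest, ranked highest at both ages, with 49672 ± 20000 per kilobase in 6-month WT hearts (SD, n = 5) and 73651 ± 43670 in 6-week WT hearts (SD, n = 3). Rps2 came next at 6 months with 18789 ± 3151 per kilobase. The UTRs, which also give reads, are not in this length, so the value of a very short frame such as that of Rpl41 is raised.

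The lowest 4 genes were the same at both ages: Rps27, Rpl26, Rpl30 and Rpl34. Each shares sequence with another row of the same table, as the family is copied in many pseudogenes. This does not set them apart, since 14 of the 75 share sequence with a row of the 6-month table. Rplp2 shared 48.1% with Wdr89 and Rpl14 42.6% with Rpl14-ps1, and their 6-month means over all libraries were 3259 and 4551. The median gene shared 48.3% of its transcript, counted in stretches of 75 bases, with at least 1 other annotated gene, 35 of the 75 shared over 50%, and 2 shared none. Rps27 shared 98.5% with Rps27rt, a retrotransposed copy, Rpl26 47.3% with Gm15772, Rpl34 41.4% with Rpl34-ps1 and Rpl30 40.1% with Gm12191. How the authors' counting split such reads is not given in the sources used here, so the levels of these 4 genes are uncertain, as are differences in them. Other genes of the family that share sequence are open to the same limit.

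Rps27 shows how far the split moved. At 6 weeks it had normalised counts of 957, 995 and 614 in KO hearts, against 434, 409 and 6.62 in WT hearts, and the groups did not overlap. Its copy Rps27rt had 1576, 1565 and 1451 in KO hearts, against 2771, 1824 and 1899 in WT hearts, the opposite order. The sum of both rows averaged 2386 ± 278 in KO hearts and 2448 ± 676 in WT hearts (SD, n = 3 each), a log2 difference of -0.01. At 6 months Rps27 held between 0.19% and 0.746% of the sum in all 14 libraries, against 29.7% to 38.9% in 6-week KO and 0.347% to 18.3% in 6-week WT hearts. Rpl34 at 6 weeks behaved alike: 872, 490 and 672 in KO hearts against 467, 478 and 318 in WT hearts, while the sum with Rpl34-ps1 averaged 1870 ± 172 in KO and 1970 ± 739 in WT hearts.

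**Figure D1:**
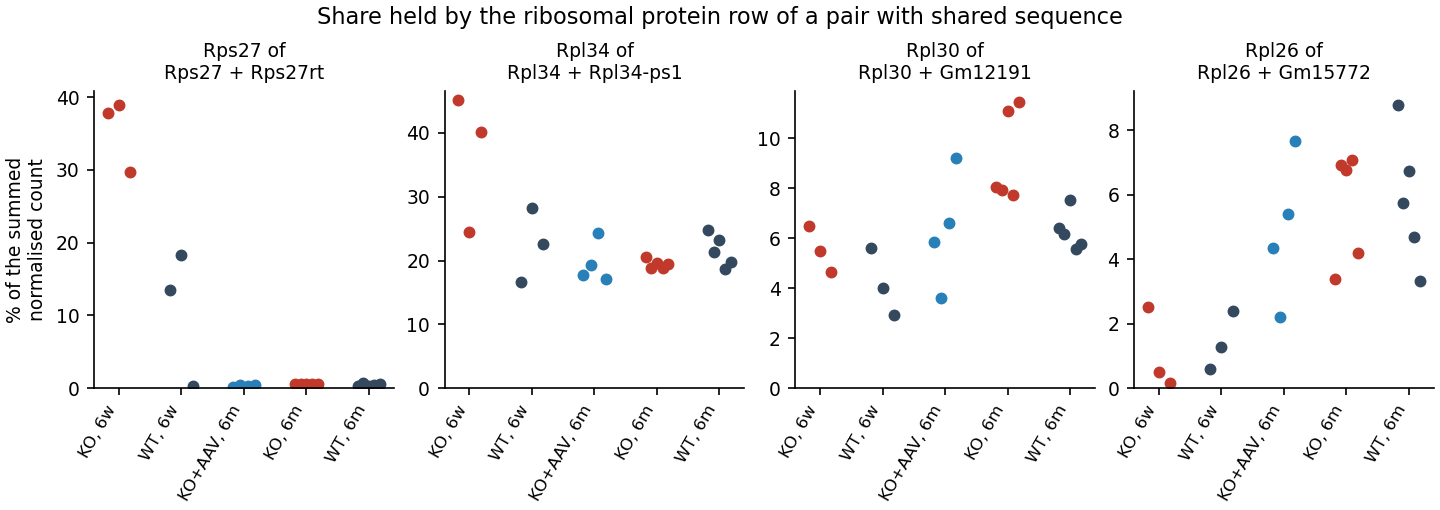
Percentage of the summed normalised count held by the ribosomal protein row in 4 pairs with shared sequence, 1 point per library, with KO+AAV in blue, KO in red and WT in dark grey at 6 weeks (6w) and 6 months (6m). Rps27 held 29.7% to 38.9% of its pair in 6-week KO hearts and at most 0.746% in every 6-month heart.

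The family as a whole varied as much between mice of 1 group as between groups. At 6 months the 75 genes took 3.42, 3.47, 2.93 and 2.52% of the library total in KO+AAV hearts. In KO hearts they took 3.55, 2.11, 2.04, 1.84 and 2.98%, against 2.22, 1.76, 1.97, 2.96 and 3.52% in WT hearts, in replicate order. The means were 3.08 ± 0.449% in KO+AAV (SD, n = 4), 2.50 ± 0.73% in KO and 2.49 ± 0.734% in WT hearts (SD, n = 5 each), and all 3 groups overlapped. At 6 weeks the share was 4.44, 4.58 and 4.50% in KO hearts, against 5.01, 3.89 and 3.48% in WT hearts, with the KO values inside the WT range. Each share is of its own library. The split of shared reads differed between the ages for Rps27, and the ages were not tested against each other, so the shares are not compared across ages.

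**Figure D2:**
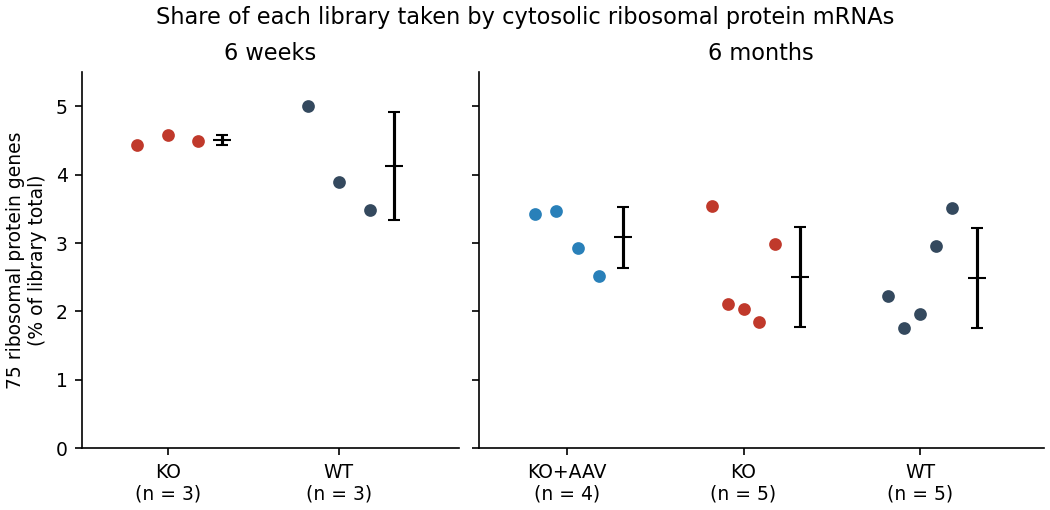
Share of each library's total normalised count taken by the 75 ribosomal protein genes, in percent, 1 point per library with the mean and SD at the right of each group. At 6 months KO+AAV hearts, 2.52% to 3.47%, lie within the ranges of KO, 1.84% to 3.55%, and WT hearts, 1.76% to 3.52%. The 6-week KO hearts lie within the WT range of 3.48% to 5.01%.

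Within a group the genes moved together. In KO hearts at 6 months KO replicate 1 held the highest value for 71 of the 75 genes and replicate 4 the lowest for 52, and the highest value was a median of 2.03 times the lowest. In WT hearts replicate 5 was highest for 72 genes and replicate 2 lowest for 63, with a median ratio of 2.10. The KO+AAV hearts were closer together, with replicate 4 lowest for 66 genes and a median ratio of 1.62. The within-group SD of a member on the log2 scale had a median of 0.42, against 0.29 for 1013 other genes with a mean of at least 1804. After the median of the family was subtracted in each library, it was 0.12.

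Other short mRNAs moved with the family, and long ones the other way. In KO replicates 1 to 5 at 6 months the family lay 0.45, -0.40, -0.48, -0.55 and 0.15 log2 units from its mean over the table. The 625 other genes with a transcript of up to 1000 bases and a mean of at least 50 lay at 0.20, -0.32, -0.37, -0.46 and -0.08 in the same hearts. The 3368 genes with a transcript over 4000 bases lay at -0.08, 0.14, 0.13, 0.19 and 0.01. The same order held in WT hearts, where the family lay at -0.09, -0.50, -0.40, 0.26 and 0.54 and the short genes at 0.10, -0.31, -0.16, 0.18 and 0.41. Of the 75 transcripts, 59 are no longer than 1000 bases. The labels report an RNA integrity number above 9 and give no batch, and the part of fragment length or RNA quality in these shifts was not tested.

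**Figure D3:**
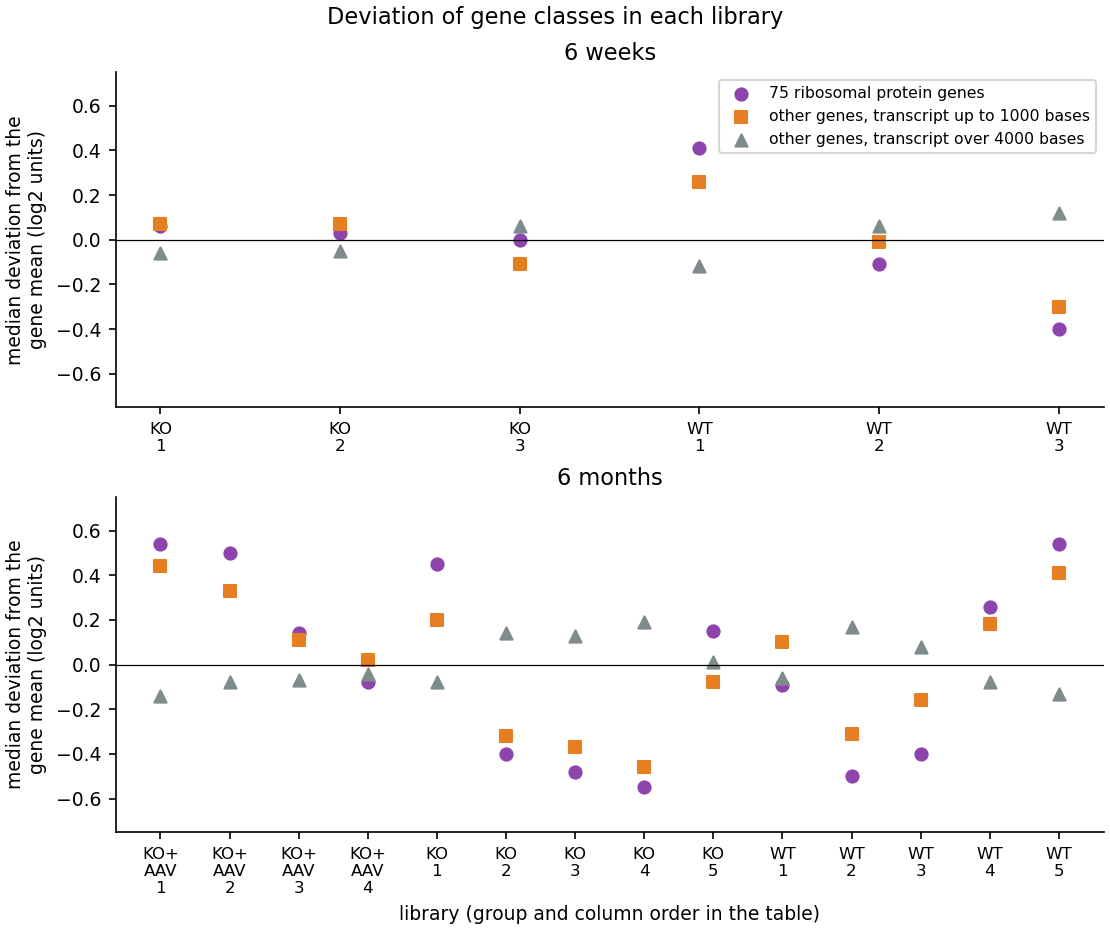
Median deviation from each gene's own mean, in log2 units, of the 75 ribosomal protein genes, of other genes with short transcripts and of other genes with long transcripts, for each library. The ribosomal protein and short-transcript points rise and fall together across libraries of 1 group, from -0.55 to 0.45 for the ribosomal protein genes of KO hearts at 6 months.

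The level of Sorbs2 itself also differed between libraries, but its order beside the family was not the same in each group. KO replicates 1 and 5, which held the most ribosomal protein mRNA, had Sorbs2 counts of 1648 and 1755. The other KO hearts had 612, 593 and 494, against 4562 to 5398 in WT hearts. In WT hearts the order was reversed: replicates 4 and 5, highest in the family, had the lowest Sorbs2, 4562 and 4753. It was also reversed in KO+AAV hearts, where replicates 1 and 2, again the high ones, had 4696 and 5753, against 15690 and 17923 in replicates 3 and 4. In 6-week KO hearts Sorbs2 was 276 to 365, against 1409 to 1990 in WT hearts. There the WT heart highest in the family had 1409 and the lowest had 1990. A row sums reads over the whole gene, so the reads left in KO hearts do not show a functional mRNA, and the part of Sorbs2 level in the family's spread was not tested.

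At 6 months the family was first compared between KO and WT hearts, the effect of lost Sorbs2 in the adult. Of the 75 genes Rps2 fell and Rpl29 rose, with limma on log2(value + 1) and a Benjamini-Hochberg adjusted p under 0.05 over 13419 genes, of which 16.3% passed, 8.13% higher and 8.18% lower. The median log2 difference of the 75 was -0.12, against 0.002 over all genes tested, and 12 of them lay above 0 (16%), as did 50.3% of all genes. At an unadjusted p under 0.05 there were 1 higher and 2 lower genes, where 14.1% of all genes were higher and 14.5% lower. The gene beside Rps2 and Rpl29 was Rpl18. The median standard error of 0.24 shows the limit that the spread between mice set: only differences well above it could pass. In bulk tissue, fewer cells of a type and less RNA per cell cannot be told apart.

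Rps2, whose product lines the mRNA path at the decoding side of the small subunit, had 11121, 9857, 9548, 8744 and 11436 normalised counts in KO hearts, against 18121, 13058, 14311, 17302 and 19784 in WT hearts. Every KO heart lay below every WT heart. The log2 difference was -0.69 ± 0.15 (SE), or 1.62-fold lower in KO, with an adjusted p of 0.00561. KO+AAV hearts had 18432, 13229, 14369 and 12965, all above the KO hearts. Relative to the family's median in the same library, given without a test, Rps2 lay at 1.48 ± 0.32 log2 units in KO hearts (SD, n = 5) and 2.08 ± 0.24 in WT hearts (SD, n = 5). It was the only gene of the 75 whose KO and WT groups did not overlap, where 7.29% of all genes lay fully lower and 6.56% fully higher. When libraries were scaled to an equal median of the family, a setting chosen after seeing the data, the log2 difference was -0.60 with an adjusted p of 0.101, and under quantile normalisation it was -0.35 with an adjusted p of 0.189.

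Rps2 (chromosome 17, 24718116 to 24721929, plus strand, GENCODE gene model of 6 exons) shares 71.1% of its transcript with 50 other annotated genes, of which 1 is in the 6-month table, with 6.3% shared. Reads of these copies could enter or leave the Rps2 row. No TOP tract started within 3 bases of the annotated start of Rps2, although its window holds CTTCTT further downstream. CCGGAAG and TATAAA were found in its longer promoter.

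Rpl29, a small basic protein on the outside of the large subunit, had 3992, 2316, 2292, 2193 and 3382 in KO hearts, against 1975, 1516, 691, 2236 and 1063 in WT hearts. The groups met only at KO replicate 4 and WT replicate 4. The log2 difference was 1.00 ± 0.30 (SE), or 2.00-fold, with an adjusted p of 0.0350. Relative to the family the KO hearts were tight, from -0.49 to -0.32 log2 units, whereas WT hearts lay at -0.97, -0.84, -2.09, -1.07 and -2.45. The call was lost without any 1 of KO replicates 1 and 5 and WT replicates 3 and 5, with adjusted p from 0.0723 to 0.0880. KO+AAV hearts had 4453, 4219, 2011 and 3053, with a mean of 3434 ± 1129 (SD, n = 4) against 2835 ± 809 in KO and 1496 ± 635 in WT hearts (SD, n = 5 each). At 6 weeks Rpl29 had 3249, 3046 and 3172 in KO hearts, against 4053, 2761 and 2977 in WT hearts. Rpl29 (chromosome 9, 106429454 to 106431568, plus strand) shares 69.7% of its transcript with 43 other genes, so reads of its copies could enter or leave this row.

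Rpl18, a large-subunit protein, had 4314, 2793, 2624, 2543 and 3604 in KO hearts, against 4268, 3274, 3323, 4594 and 5218 in WT hearts. The groups overlapped, and the log2 difference of -0.39 ± 0.18 had an adjusted p of 0.161. The next genes by p were Rps9, Rpl8 and Rpl9, with log2 differences of -0.37, -0.30 and -0.28 and adjusted p of 0.278, 0.291 and 0.332. Rps9, which binds at the mRNA entry beside Rps2, averaged 5144 ± 1380 in KO hearts and 6731 ± 2170 in WT hearts (SD, n = 5 each).

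**Figure D4:**
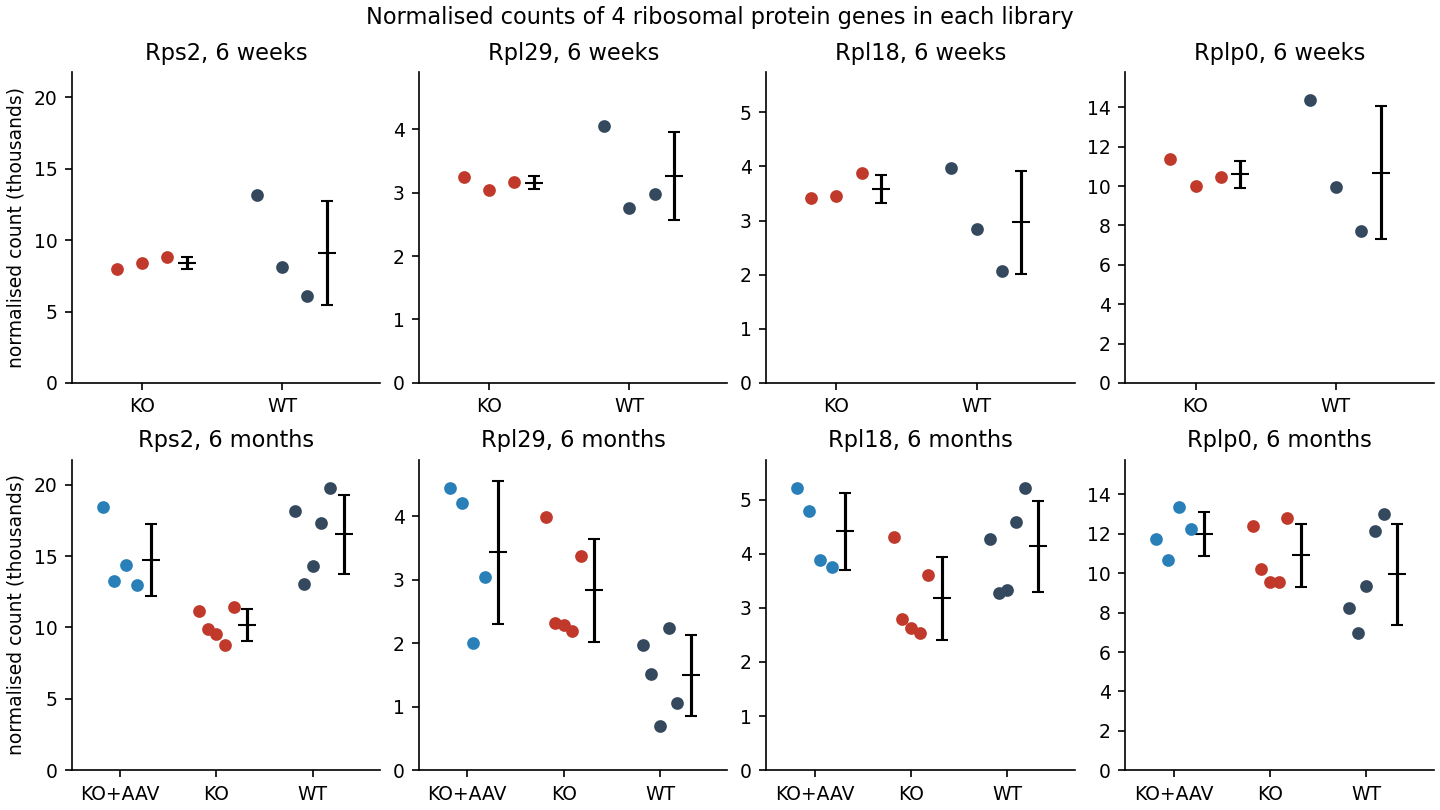
Normalised counts (the axis is scaled by 1000) of Rps2, Rpl29, Rpl18 and Rplp0 in every library, with KO+AAV, KO and WT from left to right and the mean and SD beside each group. Rps2 in 6-month KO hearts, 8744 to 11436, lies below all WT hearts, 13058 to 19784, and all KO+AAV hearts, 12965 to 18432.

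Grouped by place on the ribosome, the sets had medians from -0.11 to -0.06 at 6 months, beside -0.12 for the family. The 3 stalk proteins Rplp0, Rplp1 and Rplp2, which recruit and activate the elongation factors, had log2 differences of 0.16, -0.09 and -0.32 in KO against WT, none past the test. Rplp0 had 12425, 10233, 9541, 9543 and 12789 in KO hearts, against 8221, 6987, 9349, 12154 and 12996 in WT hearts, so the groups overlapped. Rpl5 and Rpl11, which carry the 5S rRNA and in excess bind the p53 regulator Mdm2, had -0.07 and -0.05. The 9 proteins of the exit tunnel and its rim ranged from -0.24 to 0.19, with 3 above 0. Of the 7 proteins of the decoding site and mRNA path all lay below 0, from -0.69 for Rps2 to -0.01 for Rps26, and only Rps2 passed.

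The 30 small-subunit and 45 large-subunit genes had nearly equal medians, -0.13 and -0.11. The 4 X-linked genes Rps4x, Rpl10, Rpl36a and Rpl39 had a median of -0.09 and ranged from -0.18 to 0.08. Rps6, the small-subunit protein that S6 kinase phosphorylates downstream of mTORC1, averaged 5864 ± 1376 in KO and 6189 ± 1509 in WT hearts (SD, n = 5 each), a log2 difference of -0.07. Rpl38, which has been tied to translation of Hox mRNAs in mouse embryos, had -0.18, and Rpl22, an RNA-binding large-subunit protein, 0.19. Neither passed.

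Ribosomal protein genes often serve as reference genes for quantitative PCR, so their spread is given for 3 of them. Rpl13a had 9628, 4555, 4245, 4088 and 7416 in KO hearts, against 4666, 3574, 3730, 6874 and 8959 in WT hearts. Rps18 averaged 3191 ± 1247 in KO and 3483 ± 1352 in WT hearts (SD, n = 5 each). Rplp0 averaged 10906 ± 1583 in KO and 9941 ± 2563 in WT hearts. The 7 such genes had a median log2 difference of -0.10 and none passed the test, but the SDs of Rpl13a, 2449 in KO and 2311 in WT hearts, were large beside its means of 5986 and 5561.

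**Figure D5:**
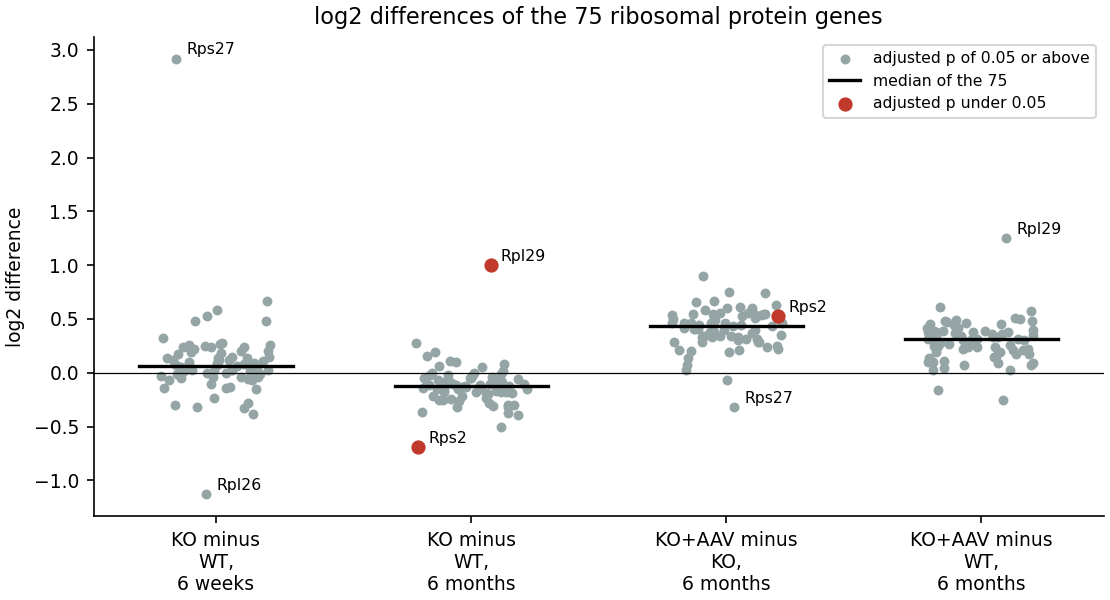
log2 differences of the 75 genes in 4 comparisons, each 1 point, with the median as a bar and the genes past an adjusted p of 0.05 in red. The medians are 0.06, -0.12, 0.43 and 0.31 from left to right, and the 6-month comparisons share their KO, WT or KO+AAV libraries.

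KO+AAV against KO asks what the Sorbs2 vector changed in the knockout. The family's median log2 difference was 0.43, with 73 of 75 genes above 0, against a median at 0 and 50% of all genes above 0. The genes moved together within a library, so these 73 are not separate observations. The family's deviations from its mean in KO+AAV replicates 1 to 4 were 0.54, 0.50, 0.14 and -0.08 log2 units. Replicates 3 and 4 lay inside the KO range of -0.55 to 0.45, and replicates 1 and 2 lay just above it. Only Rps2 passed the test, where 11.2% of 13419 genes did, 5.55% higher and 5.69% lower. It was also the 1 gene whose KO+AAV hearts all lay above the KO hearts, where 6.68% of all genes lay fully higher and 7.44% fully lower. At an unadjusted p under 0.05, 11 of the 75 were higher (14.7%), against 14.2% of all genes. The call on Rps2, with a log2 difference of 0.53 ± 0.16 and an adjusted p of 0.0464, stood close to the threshold: it was lost without any 1 of 7 of the 9 libraries, with adjusted p from 0.0576 to 0.173, and kept without KO replicate 1 or KO+AAV replicate 4. Both comparisons that moved Rps2 use the same KO libraries, so they are not independent.

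The next genes by p were Rpl18, Rpl36, Rps29, Rpl8 and Rpl24, all of them above 0. Rpl36, a small large-subunit protein, had 5956, 5374, 3091 and 2877 in KO+AAV hearts, against 4044, 1593, 1679, 1614 and 2917 in KO hearts, a log2 difference of 0.90 ± 0.35 with an adjusted p of 0.103. KO replicates 1 and 5 lay among the KO+AAV values. Rps29, a zinc-binding small-subunit protein, averaged 3101 ± 861 in KO+AAV (SD, n = 4) and 1910 ± 753 in KO hearts (SD, n = 5), and its log2 difference of 0.74 had an adjusted p of 0.112. Rpl18 had 0.49 and Rpl8, which lies near the peptidyl transferase centre, 0.46, with adjusted p of 0.102 and 0.120. Without KO replicate 1, the KO heart highest for 71 of the genes, 6 of the 75 were called higher, where 6.81% of all genes were, among them Rpl18 (0.61, adjusted p = 0.0377) and Rpl36 (1.12, adjusted p = 0.0381).

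The upward shift in KO+AAV hearts was shared by short mRNAs outside the family. Among 830 other genes with transcripts of up to 1000 bases, the median log2 difference of KO+AAV against KO was 0.38, with 143 genes called higher and 12 lower. Among 7757 genes with transcripts over 2500 bases it was -0.10, with 192 higher and 582 lower. In KO against WT the short genes had a median of -0.19 with 38 called higher and 129 lower. The part of this axis in the family's shift was tested only by adding the median deviation of the short genes to the model, a setting chosen after seeing the data, in which 37 ribosomal protein genes were called higher and Rps2 lower in KO against WT, with 13.7% and 16.6% of all genes called. In the same model 5 were called lower in KO+AAV against KO, where 5.54% of all genes were called higher and 4% lower, and the medians turned to 0.26 and -0.22. That score itself differed between the groups, with means of 0.22 in KO+AAV, -0.21 in KO and 0.04 in WT hearts, so the direction of the family in KO hearts cannot be told apart from the shift of short mRNAs.

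Sex classes were also uneven. By Xist and Y-linked genes all 5 KO hearts were of the Y-linked class, as were 2 of 4 KO+AAV and 3 of 5 WT hearts. The 2 other WT hearts, replicates 4 and 5, held the highest family shares of that group. In KO+AAV hearts the highest share, 3.47%, was in replicate 2 of the Y-linked class, against 3.42 and 2.93% in replicates 1 and 3 of the other class. KO replicate 1, of the Y-linked class, had 3.55%. At 6 weeks only WT1 and KO2 were not of the Y-linked class, with shares of 5.01 and 4.44%, the highest of WT and the lowest of KO hearts. Among the 6-month hearts of the Y-linked class alone the median log2 difference of KO against WT was 0.16 in place of -0.12. Rps2 was still called lower and Rpl29 higher. The median of KO+AAV against KO was 0.35 in that class, with none of the 75 called, where 2.46% of all genes were.

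KO+AAV hearts were also set against the WT hearts used in the KO comparison. None of the 75 passed in limma's test, where 1.33% of 13419 genes did, 0.611% higher and 0.715% lower. Of the 75, 73 lay above 0 with a median of 0.31, against 49.7% of all genes above 0. The other genes with transcripts of up to 1000 bases had a median of 0.21 here, and with the short-transcript covariate the family's median was 0.02. Leaving out 1 library gave medians from 0.19, without WT replicate 2, to 0.45, without WT replicate 5. No gene of the family had groups that did not overlap, where 2.73% of all genes lay fully higher and 2.67% fully lower. At an unadjusted p under 0.05 only Rpl29 was higher, where 9.36% of all genes were, with a log2 difference of 1.25 ± 0.32 and an adjusted p of 0.0666. The next were Rpl21, Rpl13a and Rps15a with 0.49, 0.61 and 0.45 and adjusted p of 0.295, 0.306 and 0.317. Rps2 lay at 14749 ± 2530 in KO+AAV (SD, n = 4) and 16515 ± 2770 in WT hearts (SD, n = 5).

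At 6 weeks the comparison of KO with WT asks the same in young hearts, and no gene of the family passed in KO against WT, where 78 of 13242 genes (0.589%) did, 0.378% higher and 0.211% lower. The count of all genes called ran from 7 to 163 with 1 library left out. The median log2 difference was 0.06 and 51 of the 75 lay above 0 (68%), as did 50.5% of all genes. The median was 0.28 without the WT heart highest in the family and -0.10 without the lowest. At an unadjusted p under 0.05 there were 5 genes, all higher, where 8.03% of all genes were higher and 7.42% lower. These were also the 5 whose groups did not overlap (6.67%), where 10.9% of all genes lay fully higher and 10.3% fully lower. Rpl31, at the rim of the exit tunnel, had 5037, 5393 and 5427 in KO hearts, against 3668, 4524 and 3253 in WT hearts, a difference of 0.48 with an adjusted p of 0.294. Rpl27 had 5041, 4003 and 4047 in KO hearts, against 2965, 3655 and 2786 in WT hearts, a difference of 0.48 with an adjusted p of 0.298. Rps27 and Rpl34 were also among the 5, and their values rest on the split with their copies. Rpl31 and Rpl27 are open to the same limit, as they share 73.6% and 62.4% of their transcripts with other annotated genes. Rpl31 shares 40.2% with Rpl31-ps12, a row at 6 months. The column names at this age give the group of a library but not its replicate number.

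The KO hearts at 6 weeks were more alike than the WT hearts. The highest value was a median of 1.17 times the lowest in KO and 1.77 times in WT hearts, where 1 library was highest for 69 genes and another lowest for 65. Rpl13a, for example, had 15280, 13869 and 13693 in KO hearts, against 19249, 13235 and 8281 in WT hearts. With 3 mice in each group, this spread left a median standard error of 0.24.

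Whether the effect of the knockout changed with age was tested as the difference of the log2 differences. None of the 75 passed, where 4.08% of 12709 genes did, 1.99% higher and 2.09% lower. At an unadjusted p under 0.05 there were 1 higher and 4 lower genes, where 9.05% of all genes were higher and 8.86% lower. The median was -0.21, with 14 of the 75 above 0, against 48.8% of all genes. It ran from -0.41 without the 6-week WT heart highest in the family to -0.01 without the lowest, and was 0.19 with the short-transcript covariate. Rpl29 was the closest, with 1.03 ± 0.37 and an adjusted p of 0.120, followed by Rpl34 (-0.82, adjusted p = 0.195) and Rpl18 (-0.71, adjusted p = 0.210). Rps2 had -0.65 ± 0.33 and an adjusted p of 0.305, so its fall at 6 months is not shown to be absent at 6 weeks, when KO hearts had 8007, 8414 and 8832 against 13160, 8093 and 6058 in WT hearts.

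Of the genes related to the family, Rpl3l fell and Rpl3 rose in KO hearts at 6 months. Rpl3l, the muscle paralogue of Rpl3, averaged 1699 ± 278 in KO and 5913 ± 921 in WT hearts at 6 months, while Rpl3 averaged 4859 ± 1007 and 2612 ± 548 in the same groups (SD, n = 5 each), and both passed. At 6 weeks Rpl3l also fell, to 1058 ± 246 in KO against 3048 ± 1106 in WT hearts (SD, n = 3 each), with a log2 difference of -1.49 and an adjusted p of 0.0345. Of 11 related genes tested, Rpl3l and Rpl3 were the only calls in KO against WT at 6 months, where 16.3% of all genes passed. In KO+AAV against KO, Rpl3l and Rps4l, a copy of Rps4x, rose, with log2 differences of 1.30 and 1.07 and adjusted p of 0.000525 and 0.0134.

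Few genes of the machinery that makes and regulates ribosomes passed the test. Of all genes tested, 0.589% passed in KO against WT at 6 weeks, 16.3% in KO against WT at 6 months and 11.2% in KO+AAV against KO. Of 20 translation factors and other TOP mRNAs, none passed in KO against WT at either age, and Nap1l1 alone fell in KO+AAV against KO, with a log2 difference of -0.52 and an adjusted p of 0.0386. Of 34 ribosome assembly factors tested, Tsr1, which acts in late small-subunit maturation, rose in 6-month KO hearts to 410 ± 35.6, against 262 ± 55.9 in WT hearts (SD, n = 5 each), with an adjusted p of 0.0121. Of 15 genes of RNA polymerase I and its factors, Polr1e alone fell, to 227 ± 49.5 in KO against 330 ± 34.2 in WT hearts, with an adjusted p of 0.0382.

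Of 17 genes of mTORC1 and TOP mRNA control, Sesn1, a stress-induced inhibitor of mTORC1, fell at 6 months to 1383 ± 247 in KO against 2054 ± 387 in WT hearts, with an adjusted p of 0.0145. At 6 weeks Ddit4, another such inhibitor, rose to 836 ± 194 in KO against 230 ± 122 in WT hearts (SD, n = 3 each), with an adjusted p of 0.0373. The knockout effect differed between the ages for Ddit4 (-2.23, adjusted p = 0.0198) and for Sesn1 (-0.92, adjusted p = 0.0343). Of 11 genes of the p53 response, to which free Rpl5 and Rpl11 can lead, Phlda3, Zmat3 and Eda2r rose at 6 months, with log2 differences of 1.65, 0.92 and 0.80, and the other 8 did not pass, where 8.13% of all genes were called higher. Cdkn1a, the best known target, was among those 8. In KO+AAV against KO, Zmat3 fell, to 142 ± 27.9 in KO+AAV (SD, n = 4) against 236 ± 29.0 in KO hearts (SD, n = 5), with an adjusted p of 0.0121. In KO+AAV against WT, Btg2 fell and Phlda3 rose, with log2 differences of -1.84 and 1.09 and adjusted p of 0.0324 and 0.0489.

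Library totals were 11359135 to 13670340 normalised counts at 6 months and 6705133 to 8240294 at 6 weeks. The cardiomyocyte markers were abundant in every library, with a lowest sum of 370915. In 6-month KO hearts they summed to 713561 to 970379, against 1239458 to 1530930 in WT hearts, with 4 of 10 called lower. Fibroblast markers summed to 42930 to 59357 in KO against 30599 to 45639 in WT hearts, with 6 of 10 called higher. Macrophage markers summed to 3594 to 5750 in KO against 3055 to 5740 in WT hearts, with 1 of 10 called higher, and T-cell and B-cell markers each summed to at most 101 in every library. Mural markers summed to 7415 to 10012 in KO against 11067 to 17903 in WT hearts, with 1 of 8 called higher and 2 lower. In KO+AAV against KO, 3 of 10 cardiomyocyte markers were called higher, with sums of 1095094 to 1694661 in KO+AAV hearts, and 4 of 10 fibroblast markers lower, with sums of 32472 to 43761. Mural markers summed to 10087 to 12465 in KO+AAV hearts, with 2 of 8 called higher and 1 lower. The part of the cardiomyocyte, fibroblast and mural markers in the results on Rps2, Rpl29 and the family was not tested.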

How the data were processed

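The deposited values are normalised read counts per gene, recorded here as a signal, in 1 table per age; the authors normalised each table separately and the series text names DESeq2. They are not whole reads and whole reads could not be recovered, so no count model was run. The genome build is mm10 per the submitters' processing notes; aligner, counter, annotation and strand setting: not given in the sources used here. Low-count precision therefore cannot be given as a counting interval.

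Values were tested as log2(value + 1) with limma 3.58.1 (R 4.3.3), empirical Bayes with a mean trend, on genes reaching 10 in 3 or more libraries at 6 weeks or 4 or more at 6 months, the sizes of the smallest groups. The 3 groups at 6 months shared 1 model. P-values were Benjamini-Hochberg adjusted over all genes tested, with a threshold of 0.05. A fold change is on that log2 scale and understates low genes. The difference between ages was divided by the combined SE with Satterthwaite degrees of freedom. The fit was tested on simulated data, drawn for each gene alone with no shift shared by the genes of a library. That test therefore cannot show how the fit behaves under such shifts. All 75 genes passed the filter at both ages. Gene models came from GENCODE vM21 on GRCm38. Tables were handled with Python 3.11.15 and pandas 2.3.3.

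Members and gene lists were chosen with earlier results of these data known. Genes were named if they passed the test, or, where fewer than 6 passed, as the 6 of smallest p, with those whose groups did not overlap, the extremes of level and a fixed set of 17 well-known members; in other lists, up to 4 of smallest p were eligible. A few genes that this rule would name are not reported here. The samples are labelled as replicates, and p-values measure the spread between them. Equal replicate numbers at 6 months were checked as pairs: 7 of 13 pairs of libraries correlated above 0.1 in their deviations (range -0.391 to 0.253). Unequal numbers were not compared, so this check cannot decide whether the numbers pair the mice. Alternatives covered the pseudocount, the filter, the scaling, each library left out, the groups in the model, libraries of the Y-linked class alone, a replicate block and, chosen after seeing the data, an equal family median and a covariate for short transcripts.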

Additional observations from a re-analysis of the deposited data

Results flagged for a closer look

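In the KO+AAV hearts at 6 months, Rpl34 had a normalised count of 333 in replicate 4, against 537 to 573 in the other 3, a gap of 0.85 of the group's range. This was the only such library among 60 groups of values examined, and chance marks about 1 in 20. Replicate 4 was also the lowest KO+AAV heart for 66 of the 75 genes, and Rpl34 shares 41.4% of its transcript with Rpl34-ps1.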

How the results depend on the processing

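Of the results that answer a comparison, 254 values under other settings stayed close to the reported ones and 28 moved. In KO against WT at 6 months the 1 gene called lower became 0 under quantile normalisation and with an equal family median, and the 1 called higher became 37 with the short-transcript covariate (13.7% of all genes). In KO+AAV against KO the 1 gene called higher became 0 without a filter, with equal totals, under quantile normalisation, with an equal family median, with the covariate, with the 2 groups alone and in the Y-linked class alone. With the covariate 5 genes were called lower there (4% of all genes) and the median was -0.22 in place of 0.43. In KO+AAV against WT 1 gene, Rpl29, was called higher with equal totals and with the replicate block. Between the ages 2 genes were called higher with the covariate (6.96% of all genes). The cause of these shifts was not tested.

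The replicate block gave 10 genes called higher in KO+AAV against KO (6.37% of all genes). Whether the numbers pair the mice is not known. No paired analysis was possible at 6 weeks because the columns carry no replicate numbers. With each library left out in turn, genes called higher ran from 0 to 1 in KO against WT and from 0 to 6 in KO+AAV against KO at 6 months, and the family's medians from -0.29 to 0.02 and from 0.33 to 0.58.

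The family's median in KO against WT at 6 months changed sign with equal totals (0.03, where the median of all genes moved to 0.159 and 73.1% of calls were higher, against 49.8%), under quantile normalisation (0.03), in the Y-linked class (0.16) and with the covariate (0.26). Rps2 in KO against WT was called under 18 of 20 alternatives, with log2 differences from -0.77 to -0.35 and adjusted p from 0.00162 to 0.189. Rpl29 was called under 16 of 20, from 0.75 to 1.27, with adjusted p from 0.00413 to 0.0880. For single named genes 20 values lost and 12 gained a call, and 0 called values changed sign. Among uncalled ones in KO+AAV against KO, the covariate turned Rpl36 to -0.08, Rps29 to -0.09 and Rpl24 to -0.07. The calls over all genes also moved by over 1.5 times with 1 library left out. At 6 weeks, against 78, they were 163 when KO2 was dropped, 127 for WT16, 49 for WT1, 9 for WT6 and for KO3, and 7 for KO4. For KO+AAV against KO there were 1509, and 568 when KO+AAV replicate 1 was dropped and 855 for KO replicate 5. For KO+AAV against WT there were 178, and 472 when WT replicate 5 was dropped, 109 and 115 for WT replicates 1 and 2, and 115 and 107 for KO+AAV replicates 1 and 3. Between the ages, against 518, they were 205, 229 and 263 when the 6-week KO3, WT6 and KO4 were dropped.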
